A study of Mus musculus with 240 samples.

Results

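Vessel-marker-high and vessel-marker-low libraries were compared among samples of 10 cells that had been cut from mouse brain sections by laser capture microdissection. A laser lifts chosen cells out of thin tissue, so a sample can carry RNA of whatever lies against the target. The targets were oligodendrocyte precursor cells (OPCs), the dividing glia that give rise to oligodendrocytes and from which gliomas arise in this model. Every small library came from mice labelled Trp53-/- Nf1-/-, which lack the tumour suppressors p53 and neurofibromin, killed at 12 or 90 dpi (days after the first tamoxifen dose). The labels do not give the age of the mice or the driver of the deletion. At each time there were 56 10-cell libraries and 40 pool-and-split libraries, which are aliquots of pooled captured cells and so show the spread that handling alone gives. The libraries fall into 4 sets per time, 2 female and 2 male, by sex and the number ending each label, with 14 10-cell and 10 pool-and-split libraries a set. What that number stands for is not labelled, so p-values measure the spread between these sets or libraries, which may be technical.

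For each 10-cell library the score was the mean of log2(CPM + 1) over 6 genes, where CPM is counts per 1000000 of the library's counts on mouse genes. The genes were Cldn5, Flt1, Ly6c1, Ly6a, Itm2a and Vtn. Within each time the 14 libraries with the highest score and the 14 with the lowest were taken, 56 libraries of 240 in all. Because the values themselves chose the libraries, every difference between high and low below is a description without a test, and the score genes are left out of all counts. The aim of the rule was to describe OPCs beside vessels. At 12 dpi OPC genes took a smaller share of the counts in the high than in the low libraries, and pericyte genes a larger one. The high libraries are therefore called vessel-marker-high here and not OPC samples beside vessels.

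A brain capillary is a tube of endothelial cells joined by tight junctions. Pericytes are wrapped around it inside a shared basement membrane, and astrocyte end-feet cover it from outside. OPCs touch capillaries and migrate along them during development, and Cspg4 (NG2), a classic OPC surface proteoglycan, is also made by pericytes. Of the score genes, Cldn5 encodes the main tight junction protein of brain endothelium, on chromosome 16 at 18776847 to 18778260 (GRCm38, as in the deposited table). Flt1 is a receptor for VEGF (chromosome 5, 147561604 to 147726011). Ly6c1 and Ly6a are small lipid-anchored surface proteins of brain endothelium that are encoded close together on chromosome 15 (75044018 to 75048830 and 74994877 to 74998031). Itm2a is a membrane protein encoded on the X chromosome (107397099 to 107403376). Vtn, vitronectin, is made in the brain chiefly by pericytes (chromosome 11, 78499091 to 78502324).

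A pair of sequences bears on how far these counts can be trusted to 1 gene. Ly6c1 has a near copy, Ly6c2, known from monocytes, and their coding sequences of 396 bases (GENCODE M21) differ at 9 bases, with one run of 188 bases that is the same in both. The first 90 coding bases hold 6 of the differences, shown in capitals. On GRCm38 these bases span chr15:75047450-75048511 for Ly6c1 and chr15:75110608-75111667 for Ly6c2, both on the minus strand and with an intron inside.
Ly6c1: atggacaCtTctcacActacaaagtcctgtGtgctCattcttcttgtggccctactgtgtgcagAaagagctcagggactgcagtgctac
Ly6c2: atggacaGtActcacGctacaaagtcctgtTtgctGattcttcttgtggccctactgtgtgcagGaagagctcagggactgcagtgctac
Reads within the coding sequence that miss all 9 of these bases cannot be told apart, so the division of counts between these genes is uncertain. Sequence outside the coding part was not compared. Ly6c2 stayed at or under 3.23 CPM in every high library of both times, against a median of 425 and 792 CPM for Ly6c1 there.

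The promoters of the genes that move together with the score can be read from the RefSeq table (GRCm38.p6), which held 5 of the 6 score genes. The 6 letters AGGAAG, the core bound by ETS factors, which are known regulators of endothelial genes, were searched on both strands in the 250 bases before each start. The table has 6 promoter entries for the 5 genes, since Ly6c1 has 2. The letters occurred in 3 of the 6 entries (Flt1, Itm2a and 1 of those of Ly6c1) and in 29.5% of all 32851 promoter entries. Flt1 is shown with its 2 matches in capitals (chr5:147726012-147726261, minus strand), and Cldn5 as an example with none (chr16:18776597-18776846, plus strand).
Flt1: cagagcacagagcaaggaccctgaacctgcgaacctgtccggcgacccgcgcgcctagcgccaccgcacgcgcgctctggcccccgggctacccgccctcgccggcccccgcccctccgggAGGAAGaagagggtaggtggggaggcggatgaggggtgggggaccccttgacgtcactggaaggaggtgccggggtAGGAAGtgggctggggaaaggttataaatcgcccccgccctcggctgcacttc
Cldn5: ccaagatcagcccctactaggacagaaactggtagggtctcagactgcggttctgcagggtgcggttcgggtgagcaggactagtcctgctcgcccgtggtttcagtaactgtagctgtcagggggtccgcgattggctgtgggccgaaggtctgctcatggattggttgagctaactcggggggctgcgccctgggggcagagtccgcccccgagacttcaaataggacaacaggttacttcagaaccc
A match of letters is a description of the window and was not tested as a binding site.

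The scores divided the libraries differently at the 2 times. At 12 dpi the high libraries ran from 7.89 to 9.35 (median 8.50) and the low libraries from 0 to 3.07 (median 0.15). A gap of 1.74 separated 12 libraries at or under 1.26 from the rest, and 3 of the 12 had no count on any of the 6 genes. At 90 dpi the high libraries ran from 6.87 to 9.58 (median 7.64) and the low libraries from 1.39 to 5.18 (median 3.98), and most scores formed one slope. Around the limits, the last high library and the next one scored 7.89 and 7.71 at 12 dpi and 6.87 and 6.83 at 90 dpi. The last low library and the next one scored 3.07 and 3.13 at 12 dpi and 5.18 and 5.24 at 90 dpi.

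**Figure D1:**
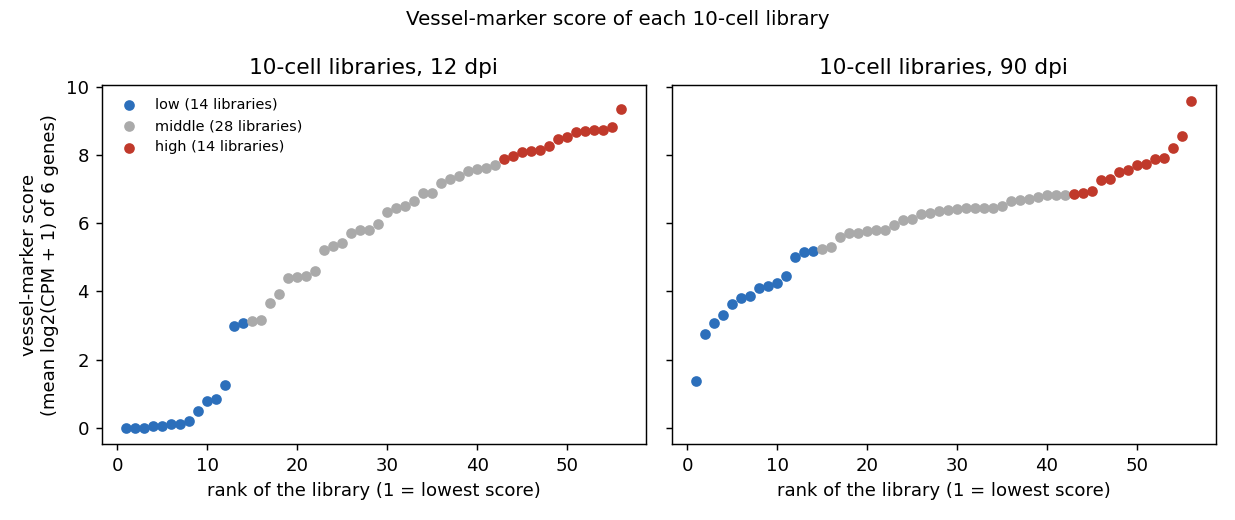
Vessel-marker score (mean log2(CPM + 1) of 6 genes, y axis) of each of 56 10-cell libraries per time, in order of score (x axis), with the 14 low libraries in blue, 28 middle libraries in grey and 14 high libraries in red. At 12 dpi 12 libraries lie at or under 1.26, below a gap of 1.74, whereas at 90 dpi the lowest library is at 1.39 and the next at 2.75.

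The sets were not equally represented. At 12 dpi the set female_1 gave 1 high and 6 low libraries and female_2 gave 6 high and 1 low, while male_1 gave 4 and 2 and male_2 gave 3 and 5. At 90 dpi the high and low numbers were 2 and 5 for female_1, 4 and 2 for female_2, 2 and 4 for male_1, and 6 and 3 for male_2. For some lists, values are therefore also given below for 4 high and 4 low libraries taken within each set. Sexes were even at 12 dpi, with 7 high and 7 low libraries each.

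Depth, the number of genes detected and, at 12 dpi, the mitochondrial share had higher medians in high than in low libraries. Total counts in high and low libraries had medians of 4.52 and 4.07 M at 12 dpi and 4.17 and 3.96 M at 90 dpi (M, 1000000 counts), with 1 low library at 1.64 M. High libraries detected 4835 to 12640 genes (median 8069) and low libraries 3324 to 12622 (median 7157.5) at 12 dpi. At 90 dpi the ranges were 8308 to 13076 (median 9912) and 6318 to 10850 (median 9105). With every library thinned to 1.6 M counts the medians were 7062.5 against 6324 at 12 dpi and 8947.5 against 8091.5 at 90 dpi. The ERCC spike-in share of counts, which is lower where a sample holds more RNA if equal amounts were added, had medians of 1.81% in high and 3.54% in low libraries at 12 dpi and 2.58% and 3.59% at 90 dpi. Mitochondrial genes took 3.62% to 10.9% of counts (median 8.28%) in high and 2.55% to 12.2% (median 5.97%) in low libraries at 12 dpi, with medians of 9.26% and 8.63% at 90 dpi. Not all of these measures followed the score through the middle libraries. Their medians were above both groups for total counts (4.56 M) and mitochondrial share (8.33%) at 12 dpi. The same held for genes detected at 90 dpi (10750). Middle medians lay between the groups for genes detected at 12 dpi (7307.5) and total counts at 90 dpi (4.12 M). The high and low groups overlapped in all of these measures, and the part of RNA content and quality in the differences below was not tested.

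At 12 dpi most low libraries held few or no counts of the score genes. Cldn5 ran from 66.0 to 4916 CPM (median 243) in high libraries, and in low libraries it was detected in 2 of 14, up to 97.3 CPM. Flt1 ran from 44.5 to 833 CPM (median 193) in high libraries and never exceeded 0.407 CPM in low ones. Vtn ran from 1028 to 4271 CPM (median 1502) in high and from 0 to 765 CPM (median 0.102) in low libraries. Ly6c1, Ly6a and Itm2a had high-library medians of 425, 664 and 110 CPM and low-library medians of 0. Flt1 and Vtn did not overlap between the groups, and the other 4 did.

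At 90 dpi the ranges of high and low libraries overlapped for every score gene. Ly6c1 ran from 190 to 1574 CPM (median 792) in high and from 0 to 378 CPM (median 2.41) in low libraries. Cldn5 had medians of 344 and 25.8 CPM, and 12 of the 14 low libraries had counts of it. Vtn was found in every low library at 179 to 2152 CPM (median 524), overlapping most of the range of the high libraries (219 to 3257 CPM, median 1506). Itm2a was low in both groups, detected in 9 high and 5 low libraries. So every low library of 90 dpi had counts of the pericyte gene Vtn, while 7 of the 14 low libraries of 12 dpi had none.

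**Figure D2:**
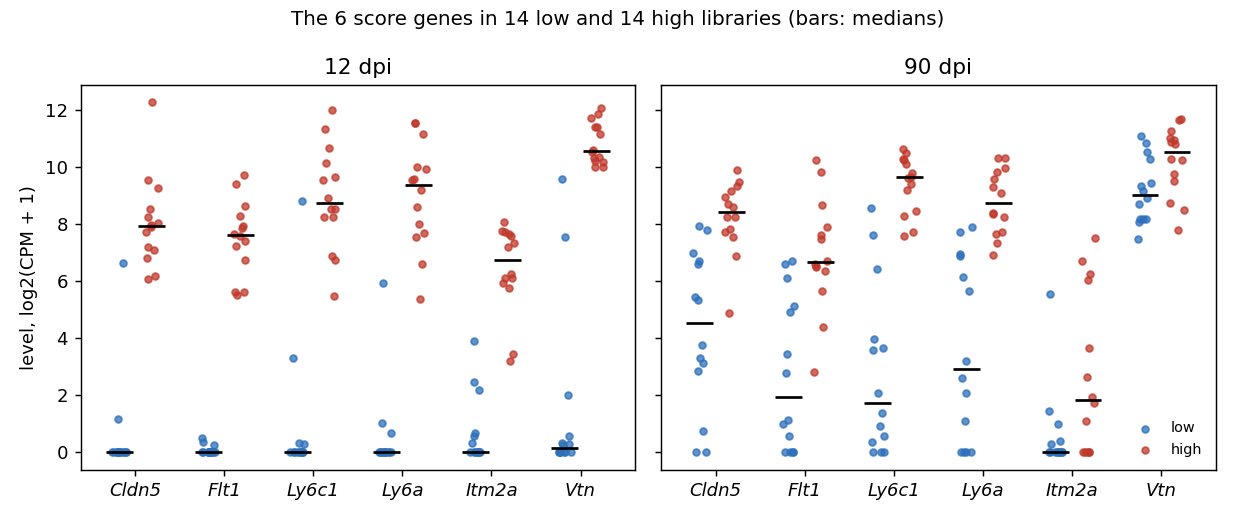
Level of the 6 score genes (log2(CPM + 1), y axis) in 14 low (blue) and 14 high (red) 10-cell libraries at 12 dpi (left) and 90 dpi (right), 1 point a library, bars at the medians. Vtn separates the groups completely at 12 dpi and overlaps widely at 90 dpi, where all low libraries are at 179 CPM or more. These genes chose the groups, so a difference between the groups is built in by the rule.

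Among all other genes detected in at least 25% of the 56 libraries of a time (14 libraries), differences of the mean log2(CPM + 1) of at least 1 were counted, high minus low. At 12 dpi 2115 of 11745 genes (18%) were higher by that much in the high libraries and 1021 (8.69%) were lower. At 90 dpi 3046 of 13307 (22.9%) were higher and 366 (2.75%) lower. The split between higher and lower genes depended on scaling: the higher share of these genes was 67.4% at 12 dpi and 89.3% at 90 dpi on total counts, 44.7% and 70.1% with TMM-scaled totals, and 60.2% and 68.8% after centring on the median gene. At 12 dpi more genes were lower than higher also in 28 against 28 libraries (1131 and 796), without set female_2 (1919 and 1250) or male_1 (1663 and 1430) and among libraries with at least 6000 genes detected (1855 and 1365). A difference above 0 was found for 55.8% of genes at 12 dpi and for 70% at 90 dpi. The median gene differed by 0.10 at 12 dpi and 0.34 at 90 dpi on total counts and by -0.10 and 0.11 with TMM. Every high library was above every low library for 4 genes at 12 dpi (0.0341%) and for 0 (0%) at 90 dpi.

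Those 4 genes at 12 dpi were Higd1b, Slco1a4, Slco1c1 and Igfbp7, named because they were so few. Higd1b, a pericyte marker, ran from 132 to 2498 CPM (median 597) in high libraries and reached at most 27.4 CPM in low ones, a difference of 8.77, the largest at that time. Slco1a4 and Slco1c1, organic anion and thyroid hormone transporters of the blood-brain barrier, differed by 6.66 and 6.13. Igfbp7, a secreted protein of vessel cells, differed by 7.58 and did not exceed 0.991 CPM in any low library. Of similar size were the differences of Mgp, matrix Gla protein, at 7.72 and Myl9, a contractile myosin light chain, at 7.47.

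The endothelial list of 26 genes (receptors, junction and identity genes) was higher in high than in low libraries at both times. At 12 dpi its summed CPM had medians of 842 in high, 841 in middle and 18.9 in low libraries. By that sum only the low libraries stood apart. The mean log2(CPM + 1) over the list averaged 2.31, 1.85 and 0.357 there. At 90 dpi the summed medians were 1316, 458 and 200 CPM. The median difference over all 26 was 1.88 at 12 dpi and 1.96 at 90 dpi, against 0.01 and 0.09 over all genes with any count. Of the members that passed the detection filter, 16 of 19 at 12 dpi and 18 of 23 at 90 dpi were higher by at least 1, and none was lower by as much at either time. Of all genes that passed, 18% and 22.9% were higher and 8.69% and 2.75% lower, and the counts of the lists below are also read beside these shares. The filter of 14 libraries can be met by the high libraries alone. Egfl7, a secreted endothelial factor, ran from 7.23 to 424 CPM (median 113) in high and from 0 to 117 CPM (median 0) in low libraries at 12 dpi. At 90 dpi its medians were 114 and 2.45 CPM, with overlap at both times. The differences of Egfl7 were 5.85 and 4.28, those of Esam, an endothelial adhesion molecule, 3.91 and 4.57, those of Eng, a TGF-beta co-receptor, 4.71 and 3.13, and those of Adgrl4 3.92 and 3.84. Emcn, a sialomucin of capillaries and veins, differed by 2.39 at 12 dpi and by 4.66 at 90 dpi, where it was the largest of all genes.

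Some textbook endothelial genes were scarcely captured. Pecam1 (CD31) had medians of 0.440 and 0.131 CPM in high and low libraries at 12 dpi and of 1.19 and 0.347 CPM at 90 dpi. Cdh5, VE-cadherin, was detected in 2 high libraries and no low library at 12 dpi and in 7 and 2 at 90 dpi. Erg, an endothelial transcription factor, was found in 0 high and 2 low libraries at 90 dpi. These values are at the level of single reads in most libraries, so no difference could be read from them at this depth.

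Barrier genes went with the endothelial list. The median difference over the 18 barrier genes was 2.71 at 12 dpi and 2.08 at 90 dpi. Slc2a1, the glucose transporter of the barrier, had a high-library median of 184 CPM and a low-library median of 0 at 12 dpi, and 257 against 27.8 CPM at 90 dpi. Pltp, a lipid transfer protein of brain endothelium, differed by 5.44 and 3.45. Genes of arteries and veins were less often detected. Of 10 arterial genes 4 passed the filter at 12 dpi and 6 at 90 dpi, of which 4 and 3 were higher by at least 1, and the medians over all 10 were 0.95 and 0.76. Of 6 venous genes 4 passed at each time, with 3 and 4 higher by at least 1 and medians over all 6 of 1.07 and 1.32. Gkn3, an arteriole gene, differed by 4.23 and 3.74, and Slc38a5, a venous amino acid transporter, by 1.57 at 12 dpi and 3.59 at 90 dpi. Gkn3 did not exceed 4.62 CPM in any low library of either time, though it was detected in only 8 and 9 of the 14 high ones.

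Pericyte genes differed more at 12 dpi than at 90 dpi in these values. Over all 14 pericyte genes the median difference was 4.10 at 12 dpi and 1.20 at 90 dpi. Of those that passed the filter, 12 of 12 and 8 of 13 were higher by at least 1. Pdgfrb, the PDGF receptor that recruits pericytes to vessels, had medians of 115 and 0 CPM at 12 dpi and of 113 and 35.3 CPM at 90 dpi, although 1 low library at 12 dpi held 3889 CPM. Atp13a5, a pericyte-restricted P-type ATPase, ran from 3.54 to 1374 CPM (median 336) in high libraries at 12 dpi and up to 17.1 CPM in low ones. At 90 dpi its medians were 108 and 9.09 CPM. Higd1b no longer stood apart at 90 dpi, with medians of 306 in high and 443 CPM in low libraries. Summed over the list, pericyte genes took 888 to 6538 CPM (median 2682) in high and 0.621 to 4735 CPM (median 35.5) in low libraries at 12 dpi, against medians of 2407 and 990 CPM at 90 dpi.

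Genes of the outer vessel wall differed less evenly. Basement membrane genes had a median difference over 14 genes of 2.47 at 12 dpi and 1.68 at 90 dpi, with Lamb2, a laminin chain, at 5.40 and 2.92. Only 2 of 9 smooth muscle, 5 of 10 fibroblast and 2 of 8 perivascular macrophage genes passed the filter at 12 dpi, and 4, 6 and 4 did at 90 dpi. The medians over all members were 0.49, 1.11 and 0.99 at 12 dpi and 0.79, 0.96 and 0.70 at 90 dpi. Over the members that passed the filter the 12 dpi medians were 4.23, 2.57 and 2.04. With libraries taken within sets these were 2.89, 1.48 and 1.48. Acta2, smooth muscle actin, was found in 7 high and 0 low libraries at 12 dpi and in 9 and 2 at 90 dpi. Of the fibroblast genes Dcn, decorin, was found in 9 high and 1 low library at 12 dpi. Of the macrophage genes Stab1, a scavenger receptor, differed by 3.05 and 4.02, while Lyve1 was found in at most 1 high library at either time.

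As shares of counts, OPC genes showed the reverse at 12 dpi. The median difference over all 17 was -2.46, all 16 that passed the filter were lower in the high libraries, and 13 of these were lower by at least 1. Sox10, the transcription factor that specifies the oligodendrocyte lineage, was found in 3 high libraries (up to 67.3 CPM) and 11 low libraries (median 15.0, up to 706 CPM), and its difference of -3.85 was the most negative of all genes. Pdgfra, the PDGF receptor that defines OPCs, had medians of 0.770 and 6.25 CPM and highest values of 33.1 and 1300 CPM. Tnr, the matrix protein tenascin-R, differed by -3.46. Olig1 and Cspg4 were detected in all 14 high and all 14 low libraries, Cspg4 with medians of 66.6 and 88.8 CPM. Summed OPC genes took 337 to 2090 CPM (median 812) in high and 803 to 7579 CPM (median 1988) in low libraries. The ranges overlapped, and the 28 middle libraries ran from 197 to 2439 CPM (median 1118). The mean log2(CPM + 1) over the OPC genes averaged 2.51 in high, 2.60 in middle and 4.49 in low libraries. By this measure the low libraries stood apart, and the high libraries were much like the middle ones.

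CPM is a share of a library's counts and not an amount of RNA. Per ERCC count, summed OPC counts ran from 0.0028 to 0.397 (median 0.0557) in high and from 0.00997 to 0.281 (median 0.0451) in low libraries at 12 dpi, so relative to the spike-in the groups overlapped and the median OPC sum was not lower in the high libraries. Summed pericyte counts per ERCC count had medians of 0.133 and 0.0014 there. This ratio was added after seeing the data, and the labels do not say that spike-in amounts were equal. Whether a type had fewer cells or less RNA per cell cannot be told apart. Over the 12 libraries under the gap in score, Pdgfra was detected in 11, Olig1 and Cspg4 in 12, and Higd1b in 3, and the summed pericyte genes stayed at or under 371 CPM. Of these 12, 6 were from female_1 and 4 from male_2. The list medians over genes that passed the filter were 5.51 for pericyte and -2.47 for OPC genes. They were 4.15 and -1.22 with libraries taken within sets, and the OPC median was -1.11 without female_1 and -1.76 among libraries with at least 6000 genes detected. The direction held in these settings, while the size of the OPC difference without female_1 was under the value with it by more than 1.5 times.

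At 90 dpi OPC genes did not differ in this way. The median difference over 17 genes was -0.18, with 8 members above 0 and 1, Gpr17, lower by at least 1. Sox10 was found in 12 high and 13 low libraries with medians of 19.5 and 9.76 CPM. Pdgfra had medians of 6.19 and 7.22 CPM. Summed OPC genes had medians of 1764 CPM in high and 1923 CPM in low libraries. High libraries of 90 dpi thus carried endothelial genes together with OPC genes at the level of the low libraries. The change from 12 to 90 dpi in the high-low difference was not tested, since both rest on groups chosen by score.

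**Figure D3:**
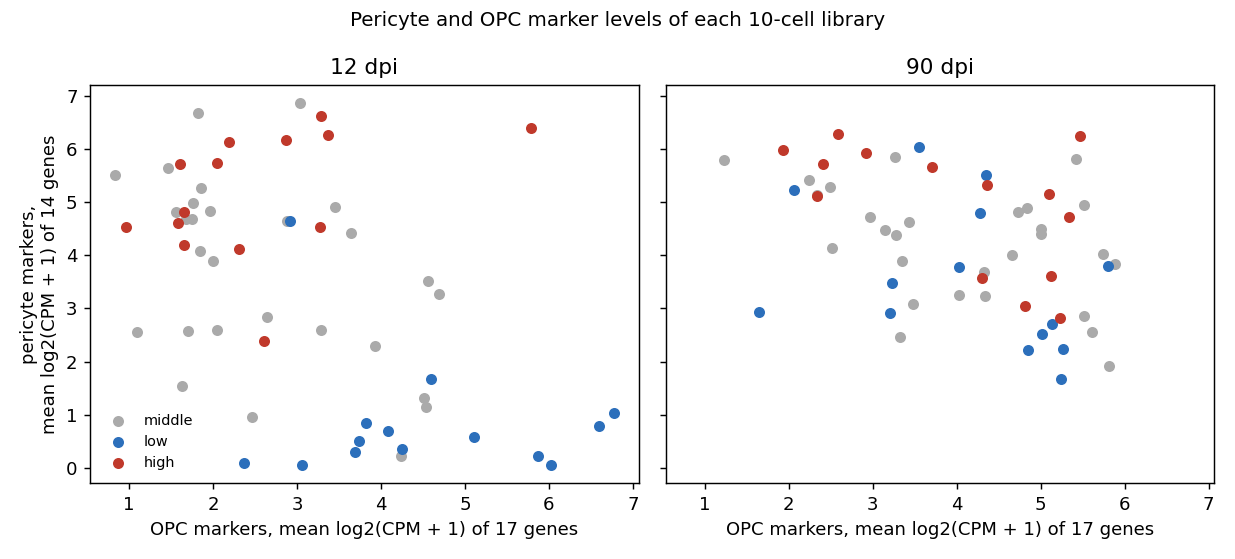
Mean log2(CPM + 1) of 17 OPC genes (x axis) against that of 14 pericyte genes (y axis) in each of 56 10-cell libraries at 12 dpi (left) and 90 dpi (right), coloured by score group. At 12 dpi most low libraries lie at the bottom and right, with a mean of 4.49 for OPC genes against 2.51 in high libraries, and at 90 dpi the means are 4.12 and 3.97.

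Across times 11631 genes passed the filter in both. Of them 819 were higher by at least 1 at both times, 38.8% of the 2109 at 12 dpi, beside 24.7% of all these genes higher at 90 dpi. They were 28.6% of the 2868 at 90 dpi, beside 18.1% of all higher at 12 dpi. Lower at both times were 37 genes, 3.64% of the 1016 at 12 dpi and 10.7% of the 347 at 90 dpi, near the 2.98% and 8.74% of all genes that were lower at 90 and 12 dpi. Of the 1016 lower at 12 dpi 253 (24.9%) were higher at 90 dpi, also near the 24.7% of all genes, and 54 genes were higher at 12 dpi and lower at 90 dpi. The 12 genes with the largest smaller-of-both differences were Itih5, Egfl7, Ifitm3, Esam, Tm4sf1, Adgrl4, Gkn3, Rcsd1, Sipa1, Ahnak, Plxdc2 and Ifitm1. Itih5, a hyaluronan-binding secreted protein, ran from 0 to 310 CPM (median 64.8) in high and up to 0.610 CPM in low libraries at 12 dpi, and had medians of 81.4 and 1.09 CPM at 90 dpi. Tm4sf1, an endothelial membrane protein, differed by 4.91 and 3.86.

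The most negative 8 of the 37 genes lower at both times were Nova1, Cdh13, Gm42517, Gpr17, Pus1, Fahd2a, Arhgap22 and Med12. Nova1, a splicing regulator of neurons, had medians of 0.227 in high and 9.71 CPM in low libraries at 12 dpi and of 1.43 and 11.5 CPM at 90 dpi. Gpr17, a receptor of OPCs committed to differentiate, differed by -1.72 and -1.36. At 90 dpi the most negative differences were those of Trp53bp1, a DNA damage response protein, at -2.76, Bod1, a mitotic regulator, at -2.58 and Ypel4 at -2.54. High and low libraries overlapped for each of these genes.

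Other cell types and programmes varied. Interferon and MHC class I genes were higher at both times, with a median difference over 15 genes of 1.36 at 12 dpi and 1.47 at 90 dpi. Within that list Ifitm3, an antiviral membrane protein abundant in endothelium, differed by 6.16 and 4.02 and H2-K1, an MHC class I heavy chain, by 4.60 and 3.37. The classical interferon-induced Isg15 differed by 1.13 and -0.02. Microglial genes had median differences over 14 genes of 1.80 and 1.28, with C1qb at 4.14 and 0.85 and P2ry12, a receptor of resting microglia, at 0.71 and -0.63. With libraries taken within sets the microglial medians were 1.35 and 1.41. Among libraries with at least 6000 genes detected the 12 dpi median was 0.91. Astrocyte genes differed by a median of 1.58 at 12 dpi and 0.34 at 90 dpi, and Aqp4, the water channel of end-feet, by 2.96 and -0.11.

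Red blood cell genes had a median difference over 7 genes of 4.03 at 12 dpi and -0.05 at 90 dpi. Over the members that passed the filter it was 4.29 at 12 dpi, and 1.56 with libraries taken within sets. The size of the blood difference at 12 dpi thus depended on which sets gave the high and low libraries. Hbb-bs, adult beta globin, ran from 0.295 to 36809 CPM (median 1835) in high and from 0 to 61085 CPM (median 12.2) in low libraries, so the groups overlapped over nearly the whole range. At 90 dpi its medians were 85.4 and 67.8 CPM. Since globin can take several percent of a library's counts, it lowers the CPM of all other genes there, and its part in the differences was not tested. The OPC median difference at 12 dpi was -2.47 on total counts and -2.72 with TMM-scaled totals. It was -1.22 with libraries taken within sets and -1.76 among libraries with at least 6000 genes detected. None of these settings tests the part of globin.

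Signals between vessels and OPCs had a median difference over 19 genes of 0.24 at 12 dpi and 0.75 at 90 dpi. Pgf, placental growth factor, a Flt1 ligand, was detected in 8 high and 0 low libraries at 90 dpi, with a high-library median of 38.0 CPM. Cxcl12, a chemokine, differed by 2.18 and 2.21. Vegfa differed by -0.29 and 0.27, with medians under 1 CPM throughout. Canonical Wnt targets had medians over 10 genes of 0.12 and 0.17. Of those that passed the filter 0 of 4 at 12 dpi and 1 of 5 at 90 dpi were higher by at least 1. Of all genes kept 18% and 22.9% were higher by as much, so the Wnt targets did not exceed that share. The 1 Wnt target, Nkd1, differed by 0.75 at 12 dpi and 2.31 at 90 dpi, where it was found in 11 high and 2 low libraries. Axin2 differed by 0.77 and 0.16.

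Median differences were -0.12 and -0.11 over 14 proliferation genes and 0.06 and 0.08 over 11 MAPK output genes, and none of the MAPK genes that passed the filter differed by 1. Neuronal genes had medians over 12 genes of -0.01 at 12 dpi and 0.75 at 90 dpi, where 4 were higher by at least 1 and 1 lower. Of all genes kept at 90 dpi 22.9% were higher and 2.75% lower by as much, and the median gene differed by 0.34. With TMM-scaled totals the neuronal median at 90 dpi was 0.11. Mki67 was found in 1 high and 1 low library at 12 dpi and in 2 and 3 at 90 dpi. Ccnd3, a G1 cyclin outside these lists, differed by 1.45 at 12 dpi and 4.35 at 90 dpi, with medians of 105 in high and 0.777 CPM in low libraries at the later time.

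**Figure D4:**
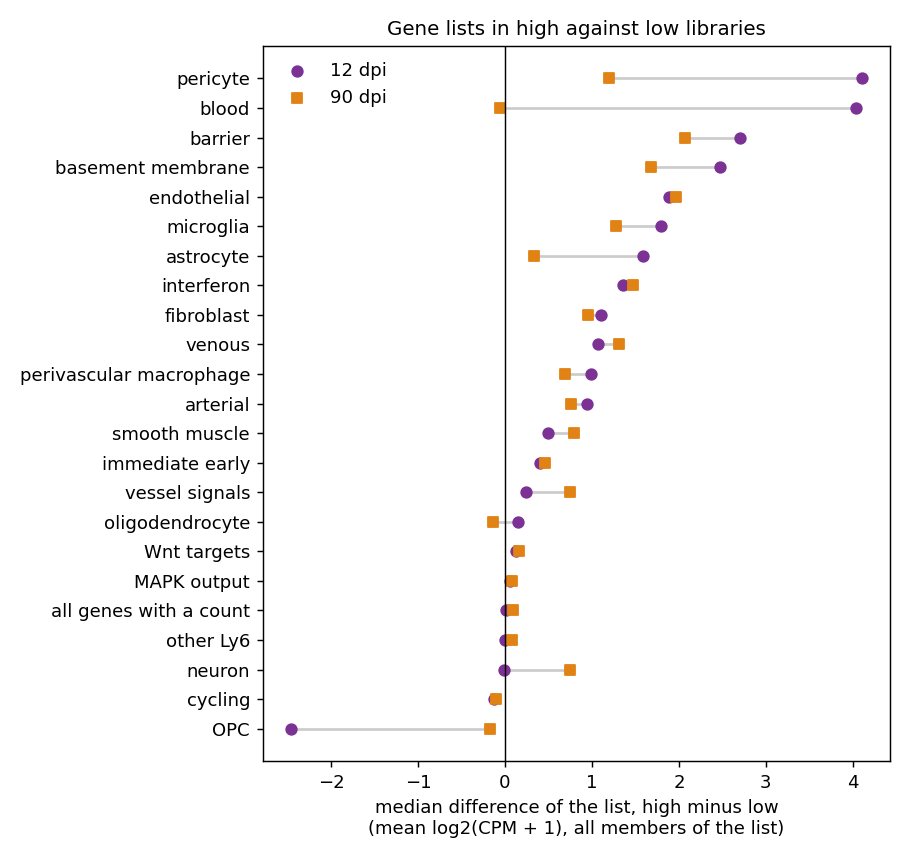
Median difference, high minus low, of mean log2(CPM + 1) (x axis) over all members of each gene list, at 12 dpi (purple circles) and 90 dpi (orange squares), with all genes that had a count as a reference row. Pericyte genes move from 4.10 to 1.20 and OPC genes from -2.46 to -0.18, while the endothelial list is at 1.88 and 1.96 and the blood list at 4.03 and -0.05. The groups shown are not balanced by set. With libraries taken within sets, blood genes that passed the filter had a 12 dpi median of 1.56, against 4.29 without.

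Time itself was not used by the rule, so the score genes could be tested between 90 and 12 dpi on counts summed over all 14 10-cell libraries of a set (4 against 4 sets, edgeR quasi-likelihood test with sex as a covariate, Benjamini-Hochberg adjustment over 15178 genes). Of these 15178 genes 0 passed an adjusted p of 0.05 (0%), 1118 had an unadjusted p under 0.05, and DESeq2 called 331. Vtn was at 380, 2278, 1526 and 974 CPM in the 12 dpi sets female_1, female_2, male_1 and male_2 and at 688, 569, 1276 and 1022 CPM at 90 dpi. Its log2 change was -0.60 (SE 0.49, adjusted p = 0.805, edgeR). The changes of Cldn5, Flt1, Ly6a and Ly6c1 lay between -0.92 and -0.50, with adjusted p from 0.684 to 0.877 (edgeR). Without female_2 of 12 dpi the estimates for Vtn, Cldn5 and Flt1 were 0.19, 0.34 and 0.44.

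Itm2a had the largest change among the score genes. In female_1, female_2, male_1 and male_2 it was at 110, 84.8, 73.3 and 98.9 CPM at 12 dpi. In the same order it was at 12.2, 41.7, 0.0180 and 0.399 CPM at 90 dpi. The log2 change was -5.17 (SE 1.94, adjusted p = 0.635, edgeR), and DESeq2 gave an adjusted p of 0.00229. In pool-and-split sets it was at 28.9, 58.4, 149 and 70.5 CPM at 12 dpi and at 30.4, 70.3, 0.0607 and 0 CPM at 90 dpi, where the times overlapped. There the log2 change was -5.18 (SE 3.93, adjusted p = 0.785, edgeR), and DESeq2 gave -5.63 with an adjusted p of 0.0204. In these sets 0 of 14220 genes (0%) passed with edgeR, against 1122 at an unadjusted p under 0.05 and 588 by DESeq2.

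Whether the markers varied more between 10-cell libraries than handling gives was tested against the pool-and-split libraries, which the rule did not use. The absolute deviation of log2(CPM + 1) from the set median was compared with limma over 8840 genes detected in at least 50% of all 10-cell and pool-and-split libraries. Libraries and not sets were the units of this test, so its p-values do not measure the spread between sets. At 12 dpi 11 genes (0.124%) varied more in 10-cell libraries and 1 (0.0113%) less. The score genes were chosen with earlier results of these data known, and the rule used the same 10-cell values. Their calls are therefore not independent evidence. The SD of Vtn was 3.99 in 10-cell and 1.04 in pool-and-split libraries, and the mean deviation differed by 2.12 (SE 0.39, adjusted p = 7.5e-04, limma). Vtn was at 0 in 8 of 56 10-cell libraries and never under 28.9 CPM in the 40 pool-and-split libraries. Other score genes were at 0 in some of those 40, Flt1 in 6, Ly6a in 5, Ly6c1 and Itm2a in 3 each and Cldn5 in 2. The score of pool-and-split libraries ran from 1.75 to 9.04 at 12 dpi and from 2.41 to 7.73 at 90 dpi. At each time this range reached into those of the high and the low 10-cell libraries. Without male_2 of 12 dpi the difference of Vtn was 1.65 and its call was lost (adjusted p = 0.0526, limma). Its adjusted p ranged from 3.5e-05 to 0.0356 without each other set in turn.

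Ly6a was also called at 12 dpi, with SDs of 3.78 and 2.10 and a difference of 1.63 (SE 0.40, adjusted p = 0.0459, limma), but its call was lost without any single set, with adjusted p from 0.0628 to 0.326. Ly6c1 (1.67, adjusted p = 0.0750), Itm2a (0.97, 0.109), Cldn5 (1.07, 0.255) and Flt1 (0.37, 0.811) were not called by limma. At 90 dpi 0 genes were called in either direction (0% and 0%) by limma, against 896 at an unadjusted p under 0.05, and the difference of Vtn was -0.12 (SE 0.39, adjusted p = 0.959). The change of the spread difference from 12 to 90 dpi was called for 41 genes that fell (0.464%) and 2 that rose (0.0226%). For Vtn it was -2.24 (SE 0.55, adjusted p = 0.0304, limma, with libraries and not the 4 sets per time as units). That call was lost without any single 90 dpi set and without male_2 or female_1 of 12 dpi, where the change lay between -2.33 and -1.78 with adjusted p from 0.0664 to 0.118 (limma). For Ly6c1 it was -2.09 (adjusted p = 0.0792), and the other 4 score genes were not called either.

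**Figure D5:**
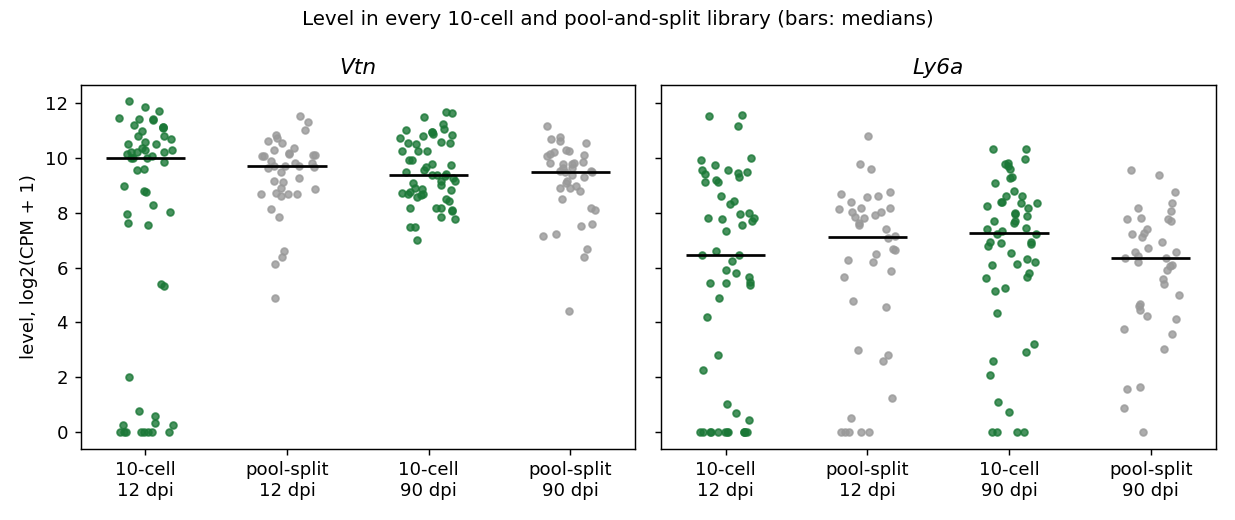
Level of Vtn (left) and Ly6a (right) as log2(CPM + 1) (y axis) in every 10-cell (green, 56 per time) and pool-and-split (grey, 40 per time) library, bars at the medians. At 12 dpi 8 10-cell libraries have no Vtn count while every pool-and-split library has at least 28.9 CPM. At 90 dpi no library of either kind is at 0 for Vtn. Ly6a is at 0 in 12 10-cell and 5 pool-and-split libraries at 12 dpi, and in 4 and 1 at 90 dpi.

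In libraries outside the rule, the score genes were followed against the mean of the other 5, centred by set or group, as a description over libraries that share depth and batch. Across 30 bulk animals without tumours (7 Trp53-/- Nf1-/- mice at each of 12 and 90 dpi and 5, 5 and 6 wild-type mice at 12, 90 and 150 dpi) the median Pearson r of the 6 score genes was 0.64. The endothelial list had a median r with the score of 0.46, barrier genes 0.51, pericyte genes 0.44 and OPC genes 0.18, against 0.13 over all 17526 genes. Leaving out the shallowest animal gave 0.71 for the score genes and 0.44 for the endothelial list. These bulk samples came from 10 µm sections of tdTomato-positive cells, and their RNA was amplified linearly and not by PCR.

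In pool-and-split libraries, where cells had been mixed before they were divided, the median r of the score genes was 0.07 at 12 dpi and 0.28 at 90 dpi (n = 40 each), against 0.10 and 0.14 over all genes. At 12 dpi the lists had medians of 0.14 (endothelial), 0.20 (barrier), 0.08 (pericyte) and 0.08 (OPC and oligodendrocyte each). At 90 dpi they had 0.23, 0.36, 0.42 and 0.14, and oligodendrocyte genes 0.37, so the pericyte median there was as high as in the 10-cell libraries of 12 dpi given next. In the 56 10-cell libraries of 90 dpi the score genes had a median r of 0.51 and the endothelial list 0.41, with OPC genes at -0.07 and all genes at 0.07. In the 44 10-cell libraries of 12 dpi above the gap the medians were 0.39 for score genes, 0.42 for pericyte, 0.08 for endothelial and -0.10 for OPC genes, against 0.02 over all genes. The 10-cell values used the same libraries as the rule and are given only beside the others.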

How the data were processed

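The deposited table holds expected counts per gene that the authors estimated with RSEM and Bowtie2 on GRCm38, per the submitters' processing notes; tool versions are not given in the sources used here. Small libraries were amplified from polyA RNA by PCR, without molecular identifiers stated, and made with Nextera XT, per the labels. PCR reads are not independent molecules. The table has 34623 genes and 92 ERCC spike-in rows, which were left out of totals. Counts were scaled to CPM per 1000000 and taken as log2(CPM + 1).

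The members, gene lists and tests were chosen with earlier results of these data known. High and low libraries were the 14 highest and 14 lowest by score at each time, ties by column order, compared without a test. A gene was kept at a time if at least 14 of its 56 libraries (25%) had counts. There were 23 gene lists. Named genes were the score genes, Ly6c2, the 12 highest and 8 lowest at both times, the 4 extremes per direction and time, and of each list the first 2, the 4 highest and the 2 lowest. Olig1 is named outside this rule, after its values were seen, and so are the few genes that did not overlap.

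Counts rounded to whole numbers were summed over each set and tested with edgeR 4.0.16 (R 4.3.3; filterByExpr, TMM, sex as covariate) between times, with DESeq2 1.42.0 as an alternative. Spread was tested with limma 3.58.1. Both were checked on simulated data. Other alternatives were the number of libraries compared, choice within sets, pseudocount, detection filter, scaling, score genes and each set left out. Libraries with at least 6000 genes detected and centring on the median gene, and the alternatives for the change of spread between times and list sums per ERCC count, were added after seeing the data. Total counts of small libraries ran from 1.64 to 6.49 M (M, 1000000 counts). Counting intervals are not given, since the replicates are libraries for spread and sets for the tests between times. Bulk tumours were not used.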

Additional observations from a re-analysis of the deposited data

Results flagged for a closer look

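Cldn5 in the 10-cell sets at 12 dpi was flagged because 1 set lay far from the other 3: female_2 was at 748 CPM and the others at 141, 162 and 193 CPM. It was 1 of 24 groups of 4 sets checked for the score genes, and chance flags about 1 in 20.

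The spread of Vtn was flagged because its difference between 10-cell and pool-and-split libraries changed between the times by a test of that change. The difference was 2.12 at 12 dpi and -0.12 at 90 dpi, and the change was -2.24 (adjusted p = 0.0304, limma). The test took libraries and not sets as units, and the call was lost without 6 of the 8 sets in turn. Vtn is a score gene chosen with earlier results of these data known, and the rule used the same 10-cell values. The call is therefore not independent evidence.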

How the results depend on the processing

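Endothelial and pericyte lists stayed higher in high libraries at both times, and OPC genes lower at 12 dpi, in every alternative run. The split of all genes did not keep its direction at 12 dpi. At 12 dpi, against 2115 genes higher and 1021 lower, 7 against 7 libraries gave 3383 higher, and 28 against 28 gave 796 higher and 1131 lower with endothelial and pericyte medians of 1.33 and 3.91. Choice within sets gave 576 lower, with medians of 1.505 and 4.15. A pseudocount of 0.1 gave 3972 higher with 4.18 and 7.17, and one of 5 gave 1030 higher and 601 lower with 1.32 and 4.31. There were 1519 higher and 1876 lower with TMM, 1543 and 1606 without Cldn5, and 1365 higher and 1855 lower among libraries with at least 6000 genes. Leaving out each set gave 1250 (without female_2) to 3393 (without female_1) higher, 393 to 1919 lower (more lower than higher without female_2, and without male_1 at 1430 and 1663) and OPC medians of -2.41 to -1.11. At 90 dpi, against 3046 and 366, 7 against 7 gave 1400 lower, and 28 against 28 gave 1245 higher and 121 lower with an endothelial median of 1.39. Pseudocounts gave 5676 higher with 3.07 (0.1), and 1182 higher and 200 lower with 1.41 (5). TMM gave 1992 and 849, centring on the median gene 1872 and 850, and the score without Ly6c1, Ly6a or Itm2a 199, 226 or 686 lower. Without each set there were 1951 to 2806 higher and 309 to 752 lower, with medians of 1.47 to 2.29 (endothelial), 0.66 to 2.00 (pericyte) and -0.45 to 0.33 (OPC).

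Between times DESeq2 called 331 genes in 10-cell and 588 in pool-and-split sets, where no filter gave 1. Leaving out each set gave estimates of -0.79 to 0.34 for Cldn5, -0.96 to 0.44 for Flt1 and -0.85 to 0.19 for Vtn in 10-cell sets. In pool-and-split sets these were -0.66 to 0.13 for Cldn5, -1.30 to 0.49 for Ly6c1, -1.32 to 0.94 for Ly6a and -0.63 to 0.37 for Vtn. Each turned positive only without female_2 of 12 dpi. The fit with the replicate block called 0 genes in both kinds, as without it. Same-numbered sets did not deviate together (r from -0.04 to 0.02). With so few and noisy sets a weak shared effect would not show, so whether the numbers pair sets was not settled.

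For spread, pseudocounts of 0.1 and 5 gave 50 and 5 calls at 12 dpi and 17 and 7 at 90 dpi, detection filters of 25% and 90% gave 6 and 55, and 21 and 12, and the set mean as centre gave 556 and 343. Leaving out each set gave 1 to 43 calls at 12 dpi and 0 to 5 at 90 dpi. The change between times, with 43 calls, had 116 with a pseudocount of 0.1, 149 with the 90% filter, 823 with the set mean and 4 to 87 without each set. The spread difference of Itm2a at 90 dpi was 0.0880 with a pseudocount of 0.1 and -0.222 to 0.0130 without each set. That of Vtn at 90 dpi was -0.209 to 0.0019 and that of Flt1 at 12 dpi -0.0830 to 0.676 without each set. The causes were not tested. Genes at single reads per library limit all comparisons.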
